A study of Mus musculus with 42 samples.

Results

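Interferon-stimulated genes (ISGs) were followed through the intima of the mouse carotid artery and through cultured endothelial cells. The 39 genes were taken by name and all 39 had a row among the 21674 named genes of the deposited expression table. By role they are 5 transcription factors (Irf1, Irf7, Irf8, Irf9 and Stat2), 4 cytoplasmic RNA sensors (Ddx58, Ifih1, Dhx58 and Ddx60), 3 IFIT proteins, 4 OAS proteins, 3 genes of the ISG15 system (Isg15, Usp18 and Trim25), 7 interferon-inducible GTPases (Gbp2, Gbp3, Gbp6, Igtp, Irgm1, Iigp1 and Ifi47), 7 other antiviral effectors (Mx1, Mx2, Rsad2, Bst2, Eif2ak2, Adar and Samhd1) and 6 further interferon-induced genes (Ifi35, Ifi44, Rtp4, Xaf1, Parp9 and Parp14).

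Low flow was made by partial ligation of the left carotid artery, the contralateral artery then carried high flow, and sham-operated arteries gave the reference. Intimal RNA was pooled from 3 to 5 arteries per library. Untreated C57BL/6J males of 6 to 7 weeks gave 3 libraries each of low flow, high flow and sham at 48 h, named a, b and c here. Further C57BL/6J males of the same age received anti-GPIba, which depletes platelets, anti-Gr1, which depletes granulocytes, clodronate liposomes, which deplete macrophages, or control IgG or PBS liposomes, with 2 low-flow libraries per treatment and 2 high-flow libraries for each control. At 7 d, Rbfox2 EC-KO mice, which carried Rbfox2 lox/lox together with the Cdh5(PAC)-CreERT2 and Rosa26-mTmG transgenes, were set beside littermates without Cre, at 2 to 7 months of age and of both sexes, with 3 low-flow libraries (numbered 1, 4 and 5) and 2 high-flow libraries (4 and 5) per genotype. The inducible CreERT2 is driven by the endothelial Cdh5 promoter, so the deletion is aimed at endothelium and other cells of the pools keep the gene. The cultured cells were 1 conditionally immortalized aortic endothelial line, derived from Cdh5(PAC)-CreERT2 mTmG mice, sorted on eGFP and kept without doxycycline so that SV40 T antigen was off, and primary aortic endothelial cells. The line was grown for 48 h with or without 10% plasma and with or without platelets and macrophages. Primary cells of 1 control and 1 EC-KO culture, from mice of 2 to 7 months, were cultured for 7 d and then sorted on CD31 and Icam2. Each culture condition is 1 library and has no replicate. The labels do not say which pools came from the same animals, so p-values measure only the spread between these libraries, which may in part be technical.

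Type I interferons bind the receptor Ifnar1/Ifnar2 and act through a complex that holds Stat2 and Irf9 on the interferon-stimulated response element (ISRE), whereas interferon gamma binds Ifngr1/Ifngr2 and acts on the gamma-activated site (GAS) and through newly made Irf1. Their targets bind viral RNA, degrade it, modify proteins with Isg15, or, as the guanylate-binding proteins and immunity-related GTPases do, attack membranes around intracellular pathogens. Endothelial cells and macrophages both answer interferon, and many ISGs are also expressed at a low tonic level without infection.

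Promoter sequence was searched for both elements. In RefSeq sequence of build GRCm38.p6, 29 of the 39 genes had an entry of 300 bases, from 250 before to 50 after the transcription start. The letters GAAANNGAAA, searched on both strands with overlapping matches allowed, stood in 15 of these genes' 36 promoters (41.7%), against 3.44% of all 32851 promoters in the table, 1 promoter in each of 15 genes. The GAS letters TTCNNNGAA, which read the same on either strand apart from the free bases, stood in 9 of the 36 promoters (25%), against 8.3% of all promoters, 1 in each of 9 genes, and 3 genes held both. A match describes the letters and is no evidence of binding. The stretches below cover the matches before the start of 8 members, 6 shown for the ISRE letters because they stand for the IFIT, ISG15 and GTPase groups and 2, Irf1 and Irf8, for the GAS letters. Capitals mark the matches of the element a stretch is shown for, adjoining capitals are overlapping matches, and a GAS match in the Igtp stretch is left in lower case. The stretches lie at Ifit1 chr19:34640770-34640828 (+ strand), Ifit3 chr19:34583358-34583431 (+ strand), Isg15 chr4:156200860-156200911 (− strand), Igtp chr11:58199507-58199546 (+ strand), Gbp2 chr3:142620589-142620628 (+ strand), Irgm1 chr11:48871421-48871465 (− strand), Irf1 chr11:53769909-53769947 (+ strand) and Irf8 chr8:120736172-120736228 (+ strand).

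Ifit1: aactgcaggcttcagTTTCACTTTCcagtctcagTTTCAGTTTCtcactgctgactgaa
Ifit3: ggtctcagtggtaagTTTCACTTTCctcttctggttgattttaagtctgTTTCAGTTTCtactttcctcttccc
Isg15: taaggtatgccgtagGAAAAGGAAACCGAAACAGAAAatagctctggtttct
Igtp: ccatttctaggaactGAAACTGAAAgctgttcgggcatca
Gbp2: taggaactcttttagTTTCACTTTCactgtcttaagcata
Irgm1: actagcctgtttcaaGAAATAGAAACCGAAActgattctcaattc
Irf1: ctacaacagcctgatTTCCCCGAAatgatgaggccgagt
Irf8: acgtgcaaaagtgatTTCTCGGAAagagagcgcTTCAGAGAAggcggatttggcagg

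Ifit1 and Ifit3 each had 2 separate ISRE matches, Isg15 had 3 that overlapped, Irgm1 had 2 that overlapped, and Igtp and Gbp2 had 1 each. Irf8 held 2 GAS matches and Irf1 held 1, and neither Irf held the ISRE letters in its window. In the build of the deposited files, mm9, the members sit partly in clusters. Chromosome 11 holds 8 of them, among them Irf1 (chr11:53583516-53591876, + strand) and Igtp (chr11:58013058-58021093, + strand), Ifit1 (chr19:34715361-34724499, + strand) lies beside Ifit3 (chr19:34658021-34663221, + strand), and Oas2 (chr5:121180342-121199862, − strand) beside Oas3 (chr5:121203107-121227670, − strand). Isg15 is at chr4:155573533-155574927 (− strand) and Irf8 at chr8:123260258-123280594 (+ strand). Members of the Ifit, Oas, Gbp and Mx families resemble each other, the authors' counting divided reads that fit several genes, and how a family's reads were split is therefore uncertain.

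Levels are given as FPKM, a count scaled to transcript length and to the library total, computed here from the expected counts, effective lengths and totals, which ran from 4064477 to 19035957 counts. Differences are log2 fold changes from edgeR's quasi-likelihood test with TMM scaling, with an approximate SE and a Benjamini-Hochberg p adjusted over all genes tested, and a gene was called at an adjusted p under 0.05. With library totals in place of TMM, the median of all genes in low against high flow moved from −0.07 to −0.69 and in low flow against sham from −0.04 to −0.71, so that FPKM place low flow lower than the fold changes do, and the TMM fold changes are differences relative to the typical gene. Called genes then went from 2652 higher and 2543 lower to 1044 and 3084 against high flow, and from 2304 and 2195 to 642 and 2716 against sham. Rbfox2 itself was at 3.27, 5.73 and 2.74 FPKM in control low-flow libraries and 1.09, 0.169 and 0.623 in EC-KO, at 3.66 and 3.84 in control and 0.791 and 1.05 in EC-KO high-flow libraries, and at 9.33 in the primary control and 0.675 in the primary EC-KO culture. The summed FPKM of 12 endothelial markers was 2533 to 3006 at low flow and 5171 to 5354 at high flow in untreated mice, but only 128 to 179 in the cell line, where 6 fibroblast markers summed to 330.1 to 512. The sum of 15 macrophage markers was 2291 to 3617 at low flow, 75.4 to 187 at high flow and 234 to 694 in sham, and that of 11 neutrophil markers was 513 to 1218, 18.1 to 39.7 and 27.4 to 87.4. In bulk intima, more cells of a type and more RNA per cell cannot be told apart.

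A few libraries had the highest or lowest FPKM of their group for most ISGs. Low-flow library c had the highest value of its group for 38 of 39 members and sham library b for 32, with the largest values among the GTPases. Outside the 39 members, Ifnar1, Ifnar2, Jak1 and Rbfox2 were also highest in low-flow library c, at 13.4, 38.4, 27.6 and 4.26 FPKM. The share of all genes was not counted, so these counts do not set the ISGs apart from other genes. Sham b also had the highest summed lymphocyte markers of the sham libraries (111 FPKM over 14 genes, against 15.5 and 23.2), whose part in its ISG levels was not tested. Among treated mice, low-flow IgG library 1 was the higher of its pair for 38 members, and anti-Gr1 library 1 and clodronate library 1 for 33 each. At 7 d, low-flow control library 1 was the highest of its group for 27 members and control library 5 the lowest for 27.

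Across the 33 carotid libraries that belong to a group of 2 or 3, most members deviated from their group means in the same libraries. The correlation of each member's log2 deviation with the mean deviation of the other members was over 0.5 for 33 of 39 (84.6%) and over 0.7 for 27 (69.2%), with a median of 0.743, as a description over libraries that share groups and depth. Of 11126 other genes that passed the filter in the untreated, treated and 7 d fits, 30.4% had a correlation over 0.5 with the members' mean and 7.68% over 0.7, with a median of 0.333. Irf1 followed the others most closely (r = 0.947) and Ifi47 came next (0.923). The lowest values belonged to 4 genes, with Oas3 at 0.0781, Irf8 at 0.0519, Mx1 at −0.0337 and Oas2 at −0.415. Oas3, Mx1 and Oas2 had median levels of 0.125, 0.176 and 0.187 FPKM, near the 0.1 added before logs, and passed 3 counts in 26, 22 and 27 of 42 libraries. Within the low-flow group the median ratio of highest to lowest library was 2.9, up to 15.8 for Iigp1, and within the high-flow group it was 1.36.

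**Figure D1:**
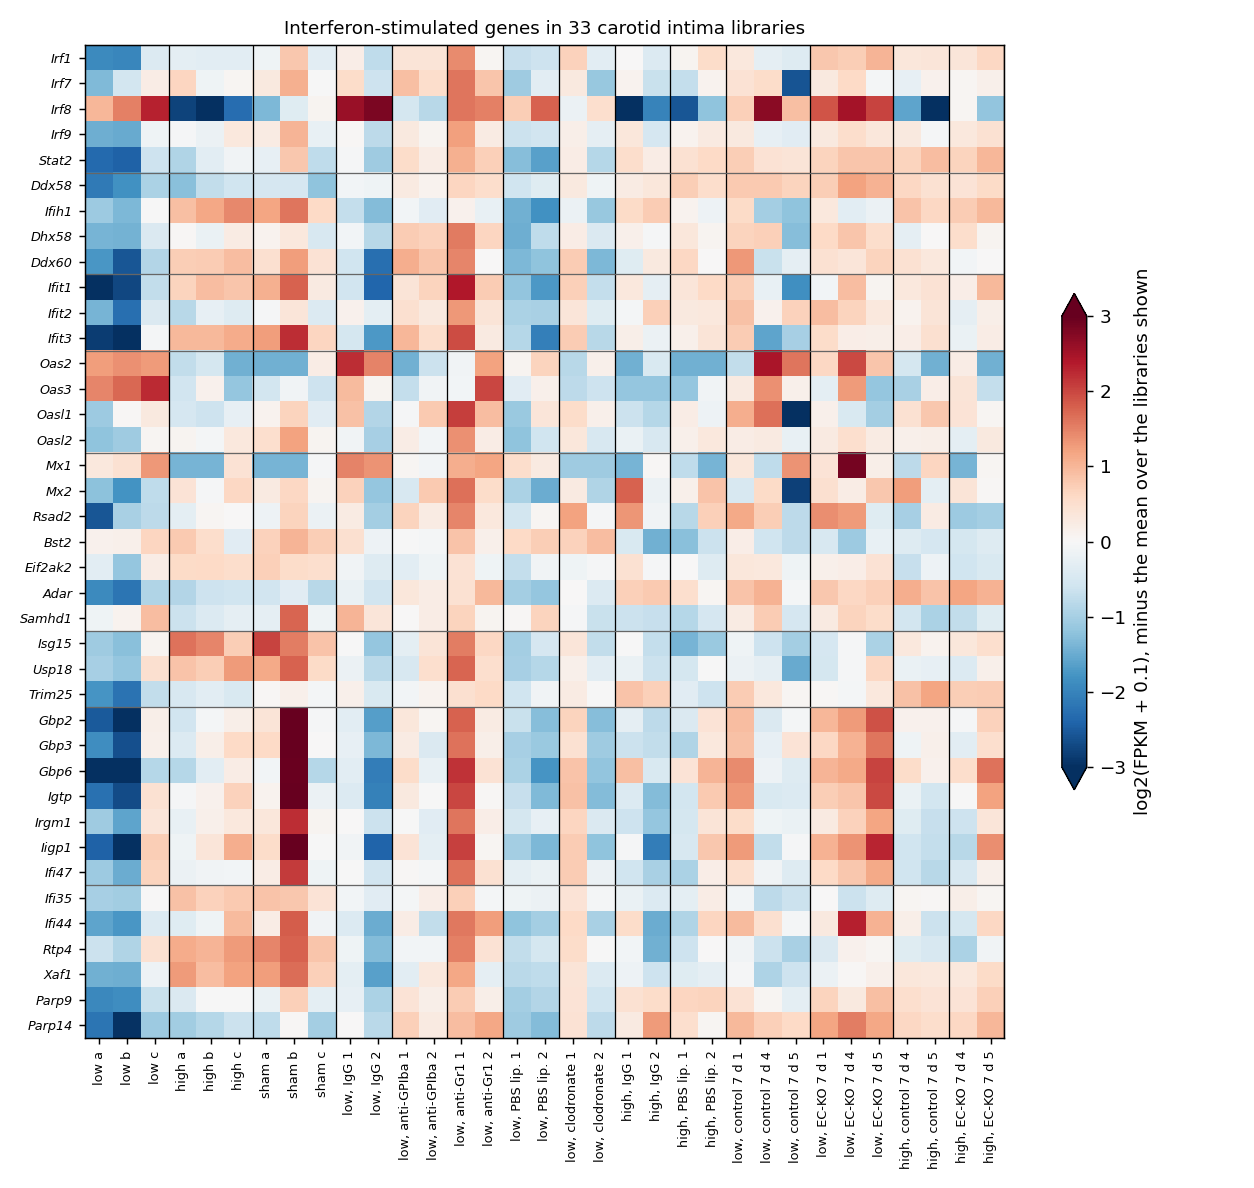
Heat map of the 39 ISGs (rows, by role) in the 33 carotid libraries of replicated groups (columns, by group), as log2(FPKM + 0.1) minus the gene's mean over these libraries. Most rows change colour together between libraries, with low-flow libraries a and b low and sham library b high, while Irf8, Oas2, Oas3 and Mx1 follow another pattern.

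The first comparison asks how the ISGs of the intima differ between low and high flow in untreated mice at 48 h. Ifit1 and Ifit3, 2 RNA sensors, Isg15 and Usp18 fell at low flow, while Irf8, Oas2, Oas3 and Samhd1 rose. Of 37 members that passed the filter on low counts, 11 were called lower, where 22.6% of all 11236 genes were, and 4 were called higher, where 23.6% of all genes were. The median member differed by −0.52, against −0.07 for all genes, and 30 of 37 members had a negative sign. With library totals in place of TMM, 17 members were called lower, where 27.4% of genes were, and 3 higher, where 9.29% were, Samhd1 being lost. Mx1, which C57BL/6 mice carry as a defective allele, and Mx2 were too low to be tested.

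The IFIT proteins bind foreign RNA and block its translation. In libraries a, b and c, Ifit1 was at 1.17, 1.45 and 6.05 FPKM at low flow, at 16.1, 19.4 and 18.1 at high flow and at 21.3, 34.8 and 12.2 in sham. Every low-flow library lay under every high-flow and sham library. The difference between low and high flow was −2.12 ± 0.30 (SE; 4.33-fold lower, edgeR adjusted p = 0.000255). Ifit3, a partner of Ifit1, was at 7.54, 6.24 and 52.4 FPKM at low flow, at 108, 108 and 119 at high flow and at 132, 254 and 85.8 in sham, again with no overlap, and it fell by 1.99 ± 0.45 on the log2 scale (edgeR adjusted p = 0.00432). Ifit2 differed by −0.12 ± 0.25 and was not called (adjusted p = 0.71), so that only 2 of the 3 IFIT genes passed the test.

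Of the 4 RNA sensors, Ifih1 and Ddx60 fell. Ifih1, or MDA5, which senses long double-stranded RNA, was at 2.06, 1.72 and 4.51 FPKM at low flow and at 8.53, 10.2 and 12.5 at high flow, a difference of −1.31 ± 0.19 (edgeR adjusted p = 0.000333). Ddx60, a helicase, was at 0.478, 0.231 and 0.961 FPKM at low flow and 3.13, 3.2 and 3.58 at high flow and differed by −1.94 ± 0.28 (adjusted p = 0.000251). The groups did not overlap for either gene. Ddx58, or RIG-I, and Dhx58, or LGP2, differed by −0.09 and −0.43 and were not called.

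Isg15, a ubiquitin-like protein that is attached to other proteins, was at 5.53, 4.78 and 12.3 FPKM at low flow, 36, 32.5 and 19.4 at high flow and 48, 33.8 and 21.1 in sham. Usp18, the enzyme that removes Isg15 and that also restrains the type I receptor, was at 3.44, 3.04 and 9.71 FPKM at low flow, 12.7, 11.6 and 17.1 at high flow and 15.3, 23.9 and 10.3 in sham. Both were lower in every low-flow library than in any high-flow library, with differences of −1.35 ± 0.30 (edgeR adjusted p = 0.00396) and −0.78 ± 0.25 (adjusted p = 0.0253). The call for Usp18 was lost in 5 of 12 alternative analyses, and that for Isg15 in none of 12. Among the further interferon-induced genes, Xaf1 (−1.45 ± 0.19, edgeR adjusted p = 0.000166), Rtp4 (−0.78 ± 0.18), Ifi35 (−0.75 ± 0.17) and Parp9 (−0.64 ± 0.18) fell, which makes 4 of 6. Xaf1, a partner of the apoptosis inhibitor XIAP, was at 3.9, 3.85 and 9.8 FPKM at low flow and 26.3, 20.8 and 25.1 at high flow.

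Only 1 of the 7 GTPases passed the test. Gbp6 was at 1.34, 0.949 and 9.19 FPKM at low flow and 9.18, 13.4 and 19.4 at high flow and differed by −1.46 ± 0.46 (edgeR adjusted p = 0.0243), a call lost in 4 of 12 alternatives. Gbp2, a guanylate-binding protein that coats pathogen vacuoles, was at 16.4, 11.3 and 107 FPKM at low flow, 63.3, 91.1 and 107 at high flow and 124, 845 and 92.5 in sham, and Igtp, also called Irgm3, at 12.4, 9.13 and 81 FPKM at low flow, 58, 65.2 and 95.3 at high flow and 64, 618 and 52.6 in sham. In both genes low-flow libraries a and b lay far under the high-flow libraries and library c among them. The fitted differences were −0.62 ± 0.47 for Gbp2 (adjusted p = 0.296) and −0.74 ± 0.45 for Igtp (adjusted p = 0.2). Without low-flow library c, 17 members were called lower, where 23.5% of genes were, and 4 higher, where 24.2% were. Gbp2 (−1.59), Igtp (−1.69), Gbp3 (−1.32), Iigp1 (−2.24), Irf1 (−0.58) and Stat2 (−0.98) were then among the lower ones.

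The transcription factors that carry the interferon signal were not called, apart from Irf8. Irf1 was at 22.3, 21.7 and 64 FPKM at low flow, 69.5, 68.1 and 68 at high flow and 77.9, 148 and 67.8 in sham. Irf7, the factor that amplifies type I interferon genes, was at 5.06, 8.81 and 15.2 FPKM at low flow, 20.2, 11.8 and 13.5 at high flow and 15.8, 27.3 and 12.9 in sham. Irf9 was at 13.5, 13.1 and 34.2 FPKM at low flow, 36.4, 33.1 and 46.5 at high flow and 44, 75.8 and 31.5 in sham. Stat2, its partner, was at 1.87, 1.75 and 6.36 FPKM at low flow, 5.25, 7.92 and 9.18 at high flow and 8.24, 17.4 and 5.74 in sham. For Irf1 all low-flow libraries lay under all high-flow libraries in FPKM, whereas for Irf7, Irf9 and Stat2 library c reached into the high-flow range. The edgeR differences were −0.39 ± 0.20 for Irf1 (adjusted p = 0.14), −0.04 ± 0.28 for Irf7 (adjusted p = 0.91), −0.36 ± 0.19 for Irf9 (adjusted p = 0.152) and −0.63 ± 0.27 for Stat2 (adjusted p = 0.0808). Bst2, or tetherin, which holds budding virions at the membrane, was at 185, 189 and 265 FPKM at low flow, 290.1, 243 and 134 at high flow and 274, 345 and 284 in sham, and its difference of 0.64 ± 0.30 was not called (adjusted p = 0.0987) and became −0.06 with library totals.

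Irf8, a factor of the myeloid lineage, went the other way. It was at 4.88, 6.97 and 12.2 FPKM at low flow, 0.263, 0.184 and 0.411 at high flow and 0.884, 1.83 and 2.52 in sham, which are ranges that do not overlap. It was 43-fold higher at low than at high flow (5.43 ± 0.34, edgeR adjusted p = 2.07e-06), and the call held in 12 of 12 alternatives. Samhd1, which cleaves deoxynucleotides, was at 15.4, 18 and 31.7 FPKM at low flow, 10.7, 12.6 and 13.7 at high flow and 13.8, 56.4 and 15.2 in sham and rose against high flow by 1.46 ± 0.18 (adjusted p = 8.64e-05). Oas2 and Oas3, enzymes whose product activates RNase L, were near the floor of 3 counts outside low flow. Oas2 had 36 counts over the low-flow group and 3 over the high-flow group, a ratio of 10.6 with a 95% exact counting interval of 3.33 to 53.6, and was called higher (adjusted p = 0.000772). Oas3, at 0.515, 0.64 and 0.959 FPKM at low and 0.0513, 0.144 and 0 at high flow, differed by 3.81 ± 0.58 (adjusted p = 0.00037). Ptprc, the leukocyte gene CD45, was at 20.5, 18.6 and 33.7 FPKM at low and 0.551, 1.7 and 1.16 at high flow. The macrophage marker sum given above was higher in the same libraries. The monocyte and dendritic cell marker list summed to 317 to 478 FPKM at low flow, 1664 to 1891 at high flow and 1184 to 2100.0 in sham. That list includes Ly6c1 and was lower at low than at high flow, as the endothelial sum was. Ptprc and the macrophage sum were higher at low flow, so the list is not read as an amount of monocytes. In the same order fat cell markers, which include Fabp4, summed to 57.5 to 139, 478 to 4163 and 39.5 to 431. Smooth muscle markers summed to 1444 to 2699, 318 to 380.2 and 264 to 1015. The part of these cell types in the members that fell and in those that rose was not tested.

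Low flow was next compared with sham arteries. Against sham, it had 14 of 36 tested members lower, where 19.7% of 11164 genes were lower, and 2 higher, where 20.6% of genes were. The median member differed by −0.89, against −0.04 for all genes, and 31 of 36 had a negative sign. With library totals, 25 members were called lower and 2 higher, where 24.3% and 5.75% of genes were. The 5 largest falls among calls were Gbp6 (−3.32 ± 1.00, edgeR adjusted p = 0.0291), Gbp3 (−2.69 ± 0.88, adjusted p = 0.0383), Gbp2 (−2.59 ± 0.89, adjusted p = 0.0457), Ifit3 (−2.44 ± 0.58, adjusted p = 0.0121) and Ifit1 (−2.42 ± 0.44, adjusted p = 0.00443). All 3 genes of the ISG15 system fell, with Isg15 at −1.52 ± 0.32 (adjusted p = 0.00815), Usp18 at −0.99 ± 0.32 (adjusted p = 0.0353) and Trim25, a ubiquitin ligase that acts on RIG-I, at −0.89 ± 0.20. Oas3 (3.95 ± 0.46, adjusted p = 0.00123) and Irf8 (2.83 ± 0.34, adjusted p = 0.00135) rose.

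Sham library b carries much of the GTPase difference. Gbp3 was at 14.3, 8.3 and 58 FPKM at low flow and 78.9, 593 and 52.4 in sham, and Gbp6 at 1.34, 0.949 and 9.19 at low flow and 15.7, 131 and 9.14 in sham, with the middle value of each sham triplet coming from library b. Without sham b, 8 members were called lower and 4 higher, where 12% and 14.3% of genes were. Gbp6 at −1.24 (adjusted p = 0.0999), Gbp3 at −0.83 (adjusted p = 0.17), Gbp2 at −0.91 (adjusted p = 0.229) and Usp18 at −0.63 (adjusted p = 0.119) were then no longer called by edgeR. Ifit3 at −1.91 (adjusted p = 0.0265), Ifit1 at −1.98 (adjusted p = 0.00741) and Isg15 at −1.52 (adjusted p = 0.0164) were still called. The other members named for their role were not called against sham, at −0.85 ± 0.30 for Irf1 (adjusted p = 0.0517), −0.29 ± 0.31 for Irf7 (adjusted p = 0.469) and −0.69 ± 0.29 for Irf9 (adjusted p = 0.087), and −1.07 ± 0.40 for Stat2 (adjusted p = 0.0592), 0.25 ± 0.21 for Bst2 (adjusted p = 0.353) and −2.44 ± 0.96 for Igtp (adjusted p = 0.07). Members called lower were 7 without low-flow library a and 6 without b, where 10.8% and 10.9% of genes were, and 23 without sham c, where 19% were.

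No member was called between high flow and sham. By edgeR, 0 of 34 tested members were called, where 0% of all genes were, DESeq2 also called 0, where 0.58% of genes were, and 6 members had an unadjusted p under 0.05, all lower, as did 4.32% of genes. The edgeR differences were −0.45 ± 0.26 for Irf1 (adjusted p = 0.749), −0.23 ± 0.31 for Irf7 (adjusted p = 0.93), −0.32 ± 0.28 for Irf9 (adjusted p = 0.87) and −0.42 ± 0.35 for Stat2 (adjusted p = 0.854). They were −0.16 ± 0.32 for Isg15 (adjusted p = 0.956), −0.20 ± 0.28 for Usp18 (adjusted p = 0.93), −0.28 ± 0.30 for Ifit1 (adjusted p = 0.901) and −0.42 ± 0.32 for Ifit3 (adjusted p = 0.829). For Bst2 and the GTPases they were −0.37 ± 0.27 for Bst2 (adjusted p = 0.825), −1.95 ± 0.70 for Gbp2 (adjusted p = 0.488) and −1.67 ± 0.79 for Igtp (adjusted p = 0.649). The median of −0.34 rested on sham b, since without that library it was 0.06.

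Low and high flow were compared again in mice given control IgG or PBS liposomes, with 2 libraries per group. In these libraries the read-file prefix differs between all low-flow and all high-flow samples, so flow and whatever that prefix stands for cannot be told apart. Summed endothelial markers were 2693 to 3017 FPKM at low and 4888 to 6351 at high flow, and macrophage markers 1422 to 2476 and 104 to 335. Smooth muscle markers were 1829 to 3619 at low and 259 to 514 at high flow, and neutrophil markers 136 to 514 and 5.62 to 68.4. Fibroblast markers were 64.8 to 133 and 139 to 278. The monocyte and dendritic cell list, which includes Ly6c1, summed to 255 to 527 and 749.9 to 917 and is again not read as an amount of monocytes. None of these ranges overlap, and the part of these cell types in the results was not tested. Under IgG, 5 of 39 members were called lower and 4 higher, where 17.7% and 22.8% of 13401 genes were. Under PBS liposomes, 9 were called lower and 4 higher, where 15.5% and 19.6% were. The median member differed by −0.38 and −0.76, against 0.07 and 0.06 for all genes.

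These counts moved when 1 library was left out. Without high-flow library 1, high-flow library 2, low-flow library 1 or low-flow library 2, in that order, 4, 3, 7 and 1 members were called lower under IgG, where 11.9%, 12.1%, 12.7% and 5.27% of genes were, and 3, 4, 1 and 2 higher, where 13.8%, 16.5%, 17.7% and 10.1% were. The median member under IgG was then 0.08, −0.63, −0.81 and 0.09, so that its sign changed without high-flow library 1 or low-flow library 2. Under PBS liposomes 3, 6, 5 and 4 members were called lower in the same order, where 4.67%, 12.9%, 7.98% and 5.36% of genes were, and 0, 3, 3 and 2 higher, where 6.06%, 14.5%, 12.9% and 10.2% were. The call was lost in 4 of 11 alternative analyses for Bst2 under IgG and for Oas2 and Ifit1 under PBS, and in 4 of 10 for Oas3 under IgG.

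Irf8 was again the gene with the steepest rise that could be fitted above the floor. Its libraries 1 and 2 stood at 14.9 and 17.6 FPKM at low flow and 0.0303 and 0.52 at high flow under IgG, and at 4.07 and 8.43 at low and 0.323 and 0.979 at high flow under PBS liposomes. The differences were 5.74 ± 0.86 (edgeR adjusted p = 0.00114) and 3.37 ± 0.76 (adjusted p = 0.00663). Samhd1 rose in both, by 1.33 ± 0.31 (adjusted p = 0.00706) and 1.18 ± 0.31 (adjusted p = 0.0131). Bst2 rose in both as well, from 124 and 62.5 to 237 and 152 FPKM under IgG (0.98 ± 0.34, adjusted p = 0.039) and from 70.8 and 109 to 256 and 285 under PBS (1.70 ± 0.34, adjusted p = 0.00409). Oas3 under IgG had 37 counts at low flow and 0 at high flow, which makes it at least 8.99-fold higher (adjusted p = 0.033), and Oas2 under PBS had 34 and 0 counts, at least 9.14-fold higher (adjusted p = 0.0343), with 3 counts over the group as the floor.

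The RNA sensor Ifih1 and Parp9, a member of the PARP family, were the 2 members called lower in all 3 flow comparisons. Ifih1 was at 2.74 and 1.76 FPKM at low and 6.73 and 7.78 at high flow under IgG (−1.78 ± 0.35, edgeR adjusted p = 0.0035) and at 1.6 and 1.2 at low and 4.88 and 4.05 at high flow under PBS (−1.56 ± 0.35, adjusted p = 0.00663). Parp9 was at 15.8 and 9.59 at low and 25.8 and 27.5 at high flow under IgG (−1.16 ± 0.32, adjusted p = 0.014) and at 9.17 and 10.0 at low and 29.2 and 29.8 at high flow under PBS (−1.51 ± 0.32, adjusted p = 0.00494). Low-flow libraries lay under high-flow libraries in each pair. Parp14 and Adar, the editor of double-stranded RNA, also fell in both treated sets, with differences of −1.32 ± 0.45 (adjusted p = 0.0369) and −1.42 ± 0.46 (adjusted p = 0.0321) for Parp14 and of −1.22 ± 0.26 (adjusted p = 0.00525) and −1.30 ± 0.27 (adjusted p = 0.00432) for Adar. Trim25 fell under IgG (−1.02 ± 0.28, adjusted p = 0.0136), and under PBS it differed by 0.26 ± 0.27 and was not called.

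The signalling factors gave mixed calls. Stat2 was at 9.51 and 4.67 FPKM at low and 14.1 and 11.4 at high flow under IgG (−0.94 ± 0.37, edgeR adjusted p = 0.0618) and fell under PBS, from 13.5 and 14.8 to 4.02 and 3.13 (−1.88 ± 0.38, adjusted p = 0.00406). Irf1 was at 96.5 and 49.9 FPKM at low and 84.7 and 63.5 at high flow under IgG and at 52.1 and 54.6 at low and 89.1 and 124 at high flow under PBS. Irf7 was at 18.9 and 8.38 FPKM at low and 14 and 8.06 at high flow under IgG and at 6.13 and 10.3 at low and 7.88 and 13.9 at high flow under PBS. Irf9 was at 37.8 and 21.6 FPKM at low and 47.2 and 26.1 at high flow under IgG and at 23.6 and 24.9 at low and 40.1 and 45.1 at high flow under PBS. None of these 3 was called. Their differences under IgG were −0.10 ± 0.43 for Irf1 (adjusted p = 0.862), 0.22 ± 0.53 for Irf7 (adjusted p = 0.757) and −0.38 ± 0.35 for Irf9 (adjusted p = 0.392), and under PBS −0.88 ± 0.43 for Irf1 (adjusted p = 0.129), −0.29 ± 0.53 for Irf7 (adjusted p = 0.694) and −0.70 ± 0.35 for Irf9 (adjusted p = 0.136).

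Among the effectors, Ifit1 was at 6.72 and 1.85 FPKM at low and 12.6 and 8.34 at high flow under IgG and at 4.36 and 2.99 at low and 13 and 15.3 at high flow under PBS, where it fell (−1.83 ± 0.64, edgeR adjusted p = 0.0454). Ifit3 was at 38 and 16.5 FPKM at low and 62.5 and 48.9 at high flow under IgG and at 30.4 and 13.1 at low and 61.6 and 72.4 at high flow under PBS. The low-flow libraries lay under the high-flow ones in each of these pairs of groups, but under IgG the differences were −1.38 ± 0.64 for Ifit1 (adjusted p = 0.102) and −1.12 ± 0.61 for Ifit3 (adjusted p = 0.163), and for Ifit3 under PBS −1.51 ± 0.62 (adjusted p = 0.0793). Isg15 was at 11.6 and 5.15 FPKM at low and 11.6 and 7.07 at high flow under IgG and at 5.63 and 8.16 at low and 4.36 and 5.33 at high flow under PBS. Usp18 was at 6.08 and 3.91 FPKM at low and 6.05 and 4.38 at high flow under IgG and at 3.43 and 3.76 at low and 4.79 and 6.89 at high flow under PBS. The fall of Isg15 and Usp18 seen in untreated mice did not pass the test here, with −0.24 ± 0.53 for Isg15 (adjusted p = 0.741) and −0.15 ± 0.46 for Usp18 (adjusted p = 0.818) under IgG and 0.62 ± 0.54 for Isg15 (adjusted p = 0.4) and −0.59 ± 0.46 for Usp18 (adjusted p = 0.344) under PBS. Gbp2 was at 75.5 and 30.2 FPKM at low and 78.8 and 55.1 at high flow under IgG and at 59.1 and 38.8 at low and 70.3 and 125 at high flow under PBS. Igtp was at 44.7 and 14.5 FPKM at low and 44.3 and 23.9 at high flow under IgG and at 36.8 and 23.7 at low and 40.4 and 102 at high flow under PBS. Neither GTPase was called, at −0.43 ± 0.62 for Gbp2 (adjusted p = 0.603) and −0.29 ± 0.76 for Igtp (adjusted p = 0.783) under IgG and −0.88 ± 0.62 for Gbp2 (adjusted p = 0.294) and −1.11 ± 0.77 for Igtp (adjusted p = 0.278) under PBS.

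Over the 3 flow comparisons, 25 of the 37 members tested in each had a negative difference every time (67.6%, against 34.9% of 11182 genes), and 6 had a positive one every time (16.2%, against 34.9%). Called lower in all 3 were 2 members (5.41%, against 8.86% of genes), and called higher in all 3 were Irf8 and Samhd1 (5.41%, against 11.7%). Called in at least 1 comparison were 23 of these 37 members (62.2%), against 67.7% of genes.

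**Figure D2:**
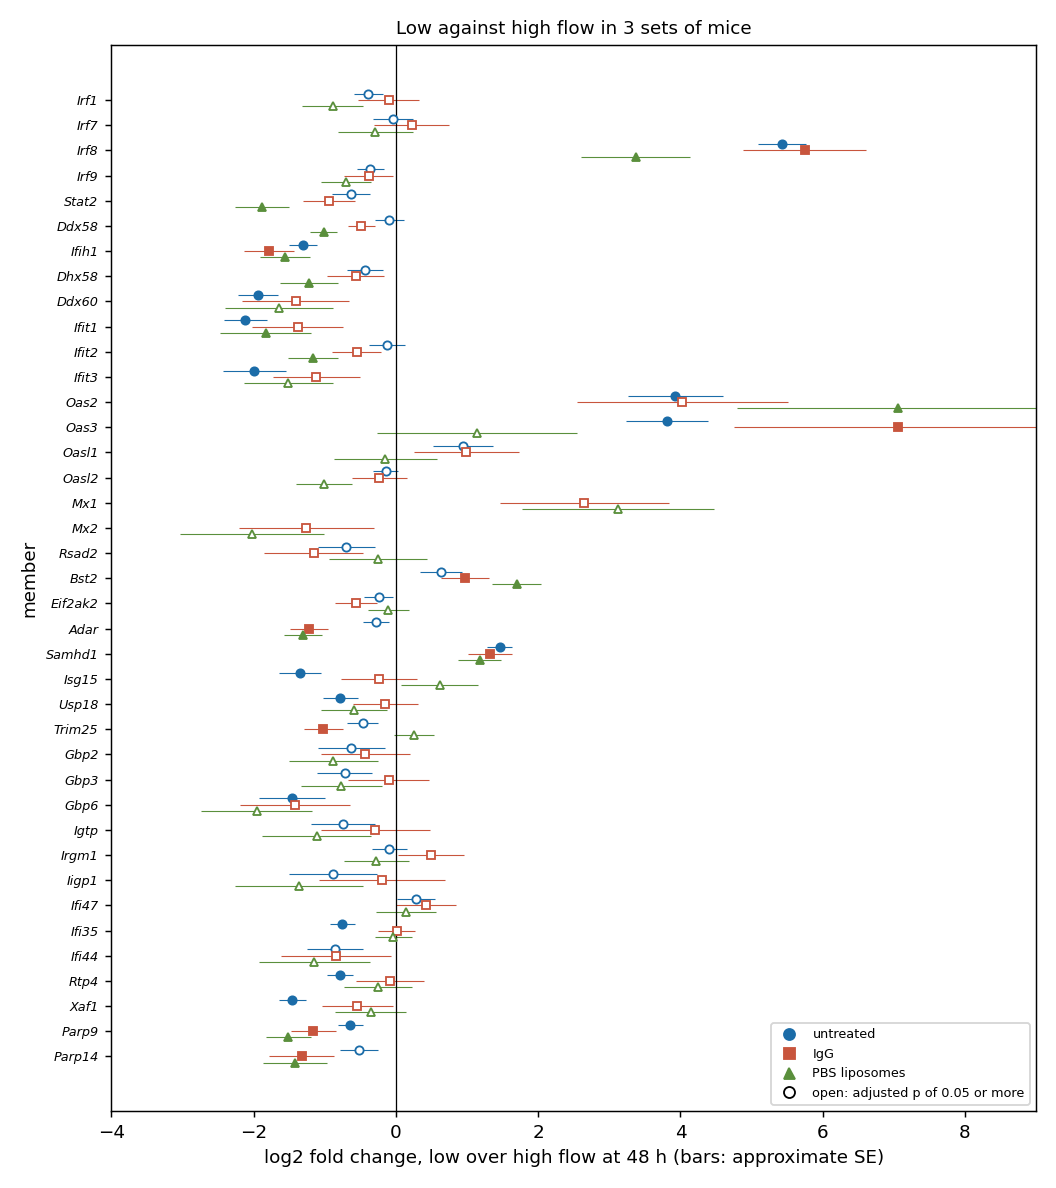
Log2 fold change of low against high flow (x axis, with approximate SE as bars) for each ISG (y axis) in untreated mice, under IgG and under PBS liposomes, filled where the edgeR adjusted p was under 0.05. Most points lie left of 0, Ifih1 and Parp9 are filled on the left in all 3 sets, and Irf8 and Samhd1 are filled on the right in all 3.

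Depletion of blood cells at low flow was compared with its own control. Most ISGs had higher fitted levels after each depletion, but only 1 member passed the test across all genes. Under anti-GPIba, 32 of 39 members had a positive difference from IgG (median 0.54, against −0.04 for all genes), under anti-Gr1 35 of 39 (median 1.34, against 0.00), and under clodronate 34 of 39 against PBS liposomes (median 0.81, against −0.02). Calls by edgeR were 1 member under anti-GPIba, where 16.5% of 13401 genes were called, 0 under anti-Gr1, where 0% were, and 0 under clodronate, where 0.119% were. At an unadjusted p under 0.05 there were 8 members higher and 2 lower under anti-GPIba, where 14.9% and 21.7% of genes were. Under anti-Gr1 there were 29 higher and 0 lower, where 7.75% and 10.4% of genes were, and under clodronate 10 higher and 2 lower, where 7.49% and 7.45% were. DESeq2 called 6, 10 and 0 members, where it called 22.1%, 1.18% and 2.77% of genes. The anti-GPIba and anti-Gr1 comparisons share their IgG libraries. Summed endothelial markers were 2735 to 3017 FPKM under IgG, 4582 to 4689 under anti-GPIba and 3293 to 3852 under anti-Gr1, and 2693 to 2932 under PBS liposomes and 3507 to 4617 under clodronate, so that they were higher after each depletion without overlap. In the same order smooth muscle markers were 2670.0 to 2853, 423 to 596, 1096 to 3779, 1829 to 3619 and 1488 to 1626. Fibroblast markers were 108 to 133, 247 to 496, 281 to 438, 64.8 to 95.8 and 64.4 to 195, and neutrophil markers 136 to 464, 8.55 to 20.7, 24.3 to 49.1, 178 to 514 and 58.5 to 72.9, so that neutrophil markers were lower after each depletion and fibroblast markers higher after both antibodies without overlap. The part of these cell types in the ISG values was not tested.

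Which library was left out changed the size of these medians. Without anti-Gr1 library 1 the median under anti-Gr1 was 0.81, with 35 of 39 members positive, and without IgG library 1 it was 1.88. Under anti-GPIba it was 1.18 without IgG library 1 and 0.18 without IgG library 2. Under clodronate it was 0.24 without clodronate library 1, with 25 of 39 members positive, and 1.09 without clodronate library 2.

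The 1 call was Irf8. It was at 14.9 and 17.6 FPKM under IgG and fell to 1.62 and 1.3 under anti-GPIba (−3.50 ± 0.74, edgeR adjusted p = 0.0227), and it was at 7.48 and 7.03 under anti-Gr1 and at 2.1 and 3.42 under clodronate, against 4.07 and 8.43 under PBS liposomes. Leaving out any 1 of the 4 libraries ended the call. The macrophage marker sum was 2336 to 2476 FPKM under IgG, 248 to 376 under anti-GPIba, 1318 to 1371 under anti-Gr1 and 275 to 278 under clodronate, against 1422 to 2317 under PBS liposomes. All 15 macrophage markers still had counts after each depletion. Irf8 and the macrophage sum were both lowest under anti-GPIba and clodronate, and the part of macrophages in the Irf8 values was not tested.

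Ifit1 and Ifit3 had positive differences after each depletion. Ifit1 was at 13.2 and 16.1 FPKM under anti-GPIba, 54 and 17.1 under anti-Gr1 and 16.7 and 6.15 under clodronate, each library above both of its control libraries. Ifit3 was at 110.5 and 79.9 FPKM under anti-GPIba, 214 and 66.3 under anti-Gr1 and 93.1 and 30.8 under clodronate. The differences from the control under anti-GPIba, anti-Gr1 and clodronate were 1.75 ± 0.64, 3.05 ± 0.67 and 1.52 ± 0.64 for Ifit1 (edgeR adjusted p = 0.0746, 0.243 and 0.307) and 1.78 ± 0.62, 2.36 ± 0.64 and 1.39 ± 0.62 for Ifit3 (adjusted p = 0.0668, 0.243 and 0.327). None passed.

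Irf1 was at 111 and 110.3 FPKM under anti-GPIba, 224 and 87.4 under anti-Gr1 and 136 and 68.2 under clodronate. Stat2 was at 14.5 and 11.4 FPKM under anti-GPIba, 20.7 and 16.3 under anti-Gr1 and 11.5 and 5.43 under clodronate. Both genes had higher values than in either control library in each anti-GPIba library. Irf7 was at 24.1 and 18.7 FPKM under anti-GPIba, 39.8 and 23 under anti-Gr1 and 15.9 and 5.82 under clodronate, and Irf9 at 45.7 and 39 FPKM under anti-GPIba, 87.2 and 44.2 under anti-Gr1 and 41.8 and 30.9 under clodronate. In the same order of treatments, the differences by edgeR were, for the factors, Irf1 0.57 ± 0.43, 1.09 ± 0.43 and 0.82 ± 0.43 (adjusted p = 0.35, 0.249 and 0.381). They were for Irf7 0.63 ± 0.53, 1.21 ± 0.53 and 0.28 ± 0.53 (adjusted p = 0.403, 0.268 and 0.829), for Irf9 0.49 ± 0.35, 1.15 ± 0.35 and 0.48 ± 0.35 (adjusted p = 0.327, 0.243 and 0.526) and for Stat2 0.85 ± 0.37, 1.40 ± 0.37 and 1.13 ± 0.37 (adjusted p = 0.12, 0.243 and 0.241). The 29 members with an unadjusted p under 0.05 under anti-Gr1 included 4 of the 5 factors.

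Isg15 was at 9.44 and 15.3 FPKM under anti-GPIba, 34 and 17.9 under anti-Gr1 and 14.9 and 6.88 under clodronate, and Usp18 at 4.91 and 9.86 FPKM under anti-GPIba, 23.5 and 9.88 under anti-Gr1 and 7.77 and 5.52 under clodronate. Bst2 was at 168 and 163 FPKM under anti-GPIba, 306 and 188 under anti-Gr1 and 275 and 325 under clodronate. Library 1 exceeded library 2 for Isg15 and Usp18 under anti-Gr1 and clodronate, and the order was the opposite under anti-GPIba. In that order the edgeR differences were for Isg15 0.54 ± 0.53, 1.64 ± 0.54 and 0.54 ± 0.53 (adjusted p = 0.481, 0.243 and 0.645), for Usp18 0.54 ± 0.46, 1.74 ± 0.47 and 0.78 ± 0.46 (adjusted p = 0.412, 0.243 and 0.441) and for Bst2 −0.25 ± 0.33, 0.36 ± 0.33 and 0.05 ± 0.33 (adjusted p = 0.604, 0.577 and 0.965). None of these was called.

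The spread between replicates was wide for the GTPases. Gbp2 was at 119 and 98.8 FPKM under anti-GPIba, 320.0 and 112 under anti-Gr1 and 150.3 and 39.2 under clodronate, and Igtp at 72.2 and 58.5 FPKM under anti-GPIba, 237 and 61.2 under anti-Gr1 and 108 and 24.2 under clodronate. Anti-Gr1 library 1 and clodronate library 1 lay far above their partners, and clodronate library 2 lay within the range of the PBS liposome libraries. The edgeR differences were for Gbp2 1.02 ± 0.63, 2.03 ± 0.64 and 0.83 ± 0.62 (adjusted p = 0.255, 0.243 and 0.538) and for Igtp 1.12 ± 0.77, 2.32 ± 0.80 and 1.01 ± 0.77 (adjusted p = 0.308, 0.243 and 0.544). All 7 GTPases had a positive difference in each of the 3 depletions and none was called. Without clodronate library 2, edgeR called 3 members, all higher, where 3.37% of genes were.

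Set against each other, anti-GPIba and anti-Gr1 libraries differed in no member by edgeR (0 of 39 called, where 0% of all genes were), with 7 members lower and 0 higher at an unadjusted p under 0.05, where 7.56% of genes were lower, and 1 call by DESeq2, which called 2.11% of genes. A negative difference, that is a lower value under anti-GPIba, stood for 38 of 39 members, with a median of −0.66. The largest differences among the named members were −1.30 ± 0.62 for Ifit1 and −2.35 ± 0.71 for Irf8 (edgeR adjusted p = 0.493 and 0.263). The other differences were −0.52 for Irf1, −0.58 for Irf7, −0.66 for Irf9, −0.55 for Stat2, −1.10 for Isg15, −1.20 for Usp18, −0.61 for Bst2, −0.58 for Ifit3, −1.01 for Gbp2 and −1.20 for Igtp. Their adjusted p-values ran from 0.395 to 0.764.

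At 7 d the comparison asks whether endothelial loss of Rbfox2, a splicing regulator, goes with other ISG levels. At low flow, 34 of 39 members had higher fitted levels in EC-KO than in control (median 0.47, against −0.04 for all genes), but edgeR called 0 members, where 0% of 13352 genes were called. There were 6 members at an unadjusted p under 0.05, all higher, where 2.92% of genes were higher, and DESeq2 called 1, Irf1, and 0.0994% of genes. The count changed with low-flow control library 1. Without it, edgeR called 9 members higher, where 5.57% of genes were (Irf1, Irf9, Ifih1, Ifit3, Gbp2, Gbp6, Igtp, Ifi47 and Parp9), and without both libraries numbered 1, whose read-file prefix no other 7 d library has, it called 5 higher, where 1.77% of genes were. Without control library 5 the median was 0.25, with 29 of 39 members positive, and without EC-KO library 4 it was 0.25. At high flow 0 members were called, where 0.00749% of genes were, with 0 at an unadjusted p under 0.05, where 2.19% of genes were, and 0 by DESeq2, where 0.18% were, and the median was 0.09.

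In libraries 1, 4 and 5, Irf1 was at 106, 69.7 and 64.5 FPKM in low-flow controls and at 147, 141 and 171 in low-flow EC-KO. Every EC-KO library lay above every control library, and the difference was 0.97 ± 0.21 (edgeR adjusted p = 0.692). At high flow, libraries 4 and 5 were at 106 and 109 in controls and 109.5 and 131 in EC-KO. Gbp2 was at 178, 70.0 and 90.5 in low-flow controls, 188, 230.1 and 356 in low-flow EC-KO, 104 and 104 in high-flow controls and 92.7 and 152 in high-flow EC-KO, without overlap at low flow (1.22 ± 0.37, adjusted p = 0.692). Igtp was at 145, 43.5 and 44.6 FPKM in low-flow controls, 99.3, 106 and 233 in low-flow EC-KO, 51.3 and 40.1 in high-flow controls and 59.2 and 136 in high-flow EC-KO, and here control library 1 lay inside the EC-KO range (0.94 ± 0.52, adjusted p = 0.692). Ifit3 was at 92.9, 18.2 and 27.6 FPKM in low-flow controls, 80.5, 62.8 and 62 in low-flow EC-KO, 62.9 and 76.8 in high-flow controls and 47.8 and 64 in high-flow EC-KO, with control library 1 above every EC-KO library (0.61 ± 0.49, adjusted p = 0.736).

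Summed lymphocyte markers were 178 FPKM in control library 1, against 15.1 and 11.3 in the other controls and 21.4 to 48.6 in EC-KO. The macrophage sum ran from 324 to 1535 in low-flow controls and from 956 to 1727 in EC-KO. Summed fibroblast markers ran from 129.7 to 444 in low-flow controls and from 492 to 1825 in EC-KO, which do not overlap. At high flow the lymphocyte sum was 5.7 to 18.9 in controls and 40.4 to 333 in EC-KO. The part of these cell types in the ISG values was not tested.

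Irf9 was at 45.2, 31.2 and 29.2 FPKM in low-flow controls, 45.2, 53.3 and 47.3 in low-flow EC-KO, 45.6 and 36.3 in high-flow controls and 46.2 and 50.9 in high-flow EC-KO. Its low-flow ranges met at 45.2 FPKM. Irf7 was at 17.4, 18.9 and 2.07 FPKM in low-flow controls, 15.8, 19.6 and 12.3 in low-flow EC-KO, 10.9 and 14.1 in high-flow controls and 13.4 and 14.3 in high-flow EC-KO, and Stat2 at 16.4, 13.2 and 12.9 FPKM in low-flow controls, 15.6, 17.7 and 17.4 in low-flow EC-KO, 15.6 and 18.6 in high-flow controls and 15.7 and 19.9 in high-flow EC-KO. Control library 5 had the lowest low-flow values of all 3 genes. The edgeR differences between EC-KO and control at low and at high flow were for Irf9 0.50 ± 0.20 and 0.20 ± 0.24 (adjusted p = 0.692 and 1), for Irf7 0.36 ± 0.60 and 0.10 ± 0.74 (adjusted p = 0.876 and 1) and for Stat2 0.29 ± 0.18 and 0.01 ± 0.22 (adjusted p = 0.699 and 1). Those of Irf1, Gbp2 and Igtp at high flow were 0.11 ± 0.25, 0.20 ± 0.44 and 1.07 ± 0.65, with an adjusted p of 1 each, and that of Ifit3 was −0.36 ± 0.60.

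Ifit1 was at 16.8, 8.62 and 2.76 FPKM in low-flow controls, 9.6, 19.1 and 10.6 in low-flow EC-KO, 12.6 and 13.7 in high-flow controls and 11.5 and 19.7 in high-flow EC-KO. Isg15 was at 10.5, 7.48 and 5.7 FPKM in low-flow controls, 8.15, 11.3 and 6 in low-flow EC-KO, 14.4 and 12.5 in high-flow controls and 14.7 and 16.4 in high-flow EC-KO, and Usp18 at 6.15, 5.71 and 2.38 FPKM in low-flow controls, 4.82, 6.73 and 10.8 in low-flow EC-KO, 6.05 and 5.84 in high-flow controls and 5.21 and 7.73 in high-flow EC-KO. The low-flow ranges of the genotypes overlapped for each of the 3. Bst2 was at 194, 113 and 99.2 FPKM in low-flow controls, 121, 80.1 and 145 in low-flow EC-KO, 130.0 and 119 in high-flow controls and 117 and 129 in high-flow EC-KO, also with overlap. The edgeR differences were for Ifit1 0.53 ± 0.54 and 0.22 ± 0.66 (adjusted p = 0.791 and 1), for Isg15 0.14 ± 0.42 and 0.16 ± 0.52 (adjusted p = 0.939 and 1), for Usp18 0.67 ± 0.45 and 0.08 ± 0.55 (adjusted p = 0.702 and 1) and for Bst2 −0.20 ± 0.27 and −0.06 ± 0.33 (adjusted p = 0.846 and 1).

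Flow at 7 d gave 1 member call in controls and 0 in EC-KO by edgeR. In controls 1 of 39 members was called, where 2.4% of genes were, and it was Irf8, at 4, 16.2 and 4.55 FPKM at low and 0.734 and 0.199 at high flow (4.04 ± 0.85, edgeR adjusted p = 0.0431). No member was called when low-flow library 4 or 5 or either high-flow library was left out. In EC-KO 0 members were called, where 1.09% of genes were, with 8 higher and 1 lower at an unadjusted p under 0.05, where 7.27% and 8.45% of genes were, and 5 calls by DESeq2, which called 5.99% of genes. Irf8 in EC-KO was at 9.04, 13.9 and 9.99 FPKM at low and 2.5 and 0.996 at high flow and differed by 2.66 ± 0.77 (adjusted p = 0.138). Without low-flow control library 1, 6 members were called lower and 1 higher in controls, where 14.1% and 15.4% of genes were. Summed macrophage markers were 324 to 1535 FPKM at low and 74.4 to 148 at high flow in controls and 956 to 1727 and 105 to 120.2 in EC-KO. Smooth muscle markers were 721 to 1082 and 151 to 192 in controls and 639 to 1023 and 136 to 159.5 in EC-KO. Endothelial markers were 2583 to 4040.0 and 5987 to 5997 in controls and 3313 to 3614 and 6171 to 6399 in EC-KO. The monocyte and dendritic cell list, which includes Ly6c1, summed to 83.7 to 271 and 1034 to 1139 in controls. In EC-KO it summed to 215 to 309.5 and 1218 to 1264, and it is not read as an amount of monocytes. None of these low-flow ranges overlaps its high-flow range, and their part in the flow results was not tested. The test of the difference between the genotypes' flow responses called 0 members, where 0% of genes were, with 1 at an unadjusted p under 0.05, where 4.03% of genes were, and 0 by DESeq2, where 0.13% were.

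Flow differences of the remaining named members, in controls and then in EC-KO, were −0.52 ± 0.23 and 0.33 ± 0.23 for Irf1, −0.07 ± 0.67 and 0.20 ± 0.67 for Irf7, −0.31 ± 0.22 and −0.01 ± 0.22 for Irf9 and −0.36 ± 0.20 and −0.09 ± 0.20 for Stat2. They were −0.85 ± 0.47 and −0.88 ± 0.47 for Isg15, −0.42 ± 0.50 and 0.17 ± 0.50 for Usp18, −0.58 ± 0.60 and −0.27 ± 0.60 for Ifit1 and −0.70 ± 0.54 and 0.28 ± 0.55 for Ifit3. They were 0.03 ± 0.31 and −0.11 ± 0.30 for Bst2, 0.03 ± 0.41 and 1.05 ± 0.42 for Gbp2 and 0.67 ± 0.59 and 0.54 ± 0.59 for Igtp. None was called, with edgeR adjusted p-values from 0.19 for Irf1 in controls to 0.989 for Irf9 in EC-KO. The interaction, a more positive value meaning a higher response in EC-KO, was 0.85 for Irf1, 0.26 for Irf7, 0.30 for Irf9, 0.27 for Stat2, −0.02 for Isg15 and 0.59 for Usp18. It was 0.31 for Ifit1, 0.97 for Ifit3, −0.14 for Bst2, 1.02 for Gbp2 and −0.12 for Igtp, with adjusted p-values of 0.986 to 1.

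In culture, with 1 library per condition, members were counted when they had at least 10 counts in the pair and differed at least 2-fold, on a log2 scale with 1 added to the scaled counts. No test was made on these single libraries. In the cell line, the library with plasma alone had higher values for 2 of 38 measured members past 2-fold and lower values for 0, where 13.3% of all genes passed it in either direction. The library with platelets and macrophages had higher values for 4 of 39 (Irf8, Dhx58, Oasl1 and Gbp3), where 12.4% passed. Plasma, platelets and macrophages together went with lower values for 21 of 39 past 2-fold, where 11.9% of genes were lower, and a higher value for 1, Irf8, where 10.4% were higher. The medians of the members were 0.20, 0.51 and −1.04 in these 3 comparisons.

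Ifit1, Ifit3 and Usp18 were at higher FPKM in the line than in the primary control and EC-KO cultures. In the order untreated, plasma, platelets with macrophages, and all 3, Ifit3 was at 322, 359.8, 487 and 36 FPKM, Ifit1 at 181, 333, 263 and 71.5 and Usp18 at 103, 144, 191 and 37.9. Only the library with all 3 additions was lower, by −3.05 (log2 ratio) for Ifit3, −1.23 for Ifit1 and −1.33 for Usp18. Isg15 was at 65.6, 67.1, 77.4 and 29.5 FPKM, Irf7 at 72.9, 86, 123 and 17.5 and Bst2 at 531, 356, 454 and 202. The ratios of all 3 additions to none were −1.04 for Isg15, −1.95 for Irf7, −1.29 for Bst2, −0.996 for Stat2, −0.96 for Irf9, −0.83 for Gbp2 and −0.87 for Igtp. Irf1 was at 33.4, 47, 34.8 and 31.3 and its ratio was 0.01. Stat2 was at 27.4, 33.1, 40.5 and 12.8, Irf9 at 74.4, 77.6, 88.2 and 35.5, Gbp2 at 22.8, 27.6, 39.9 and 11.9 and Igtp at 45, 70.3, 77.5 and 22.9. With all 3 additions, each IFIT gene, 3 of 4 OAS genes and 4 of 7 other antiviral effectors were at least 2-fold lower, and 2 of 7 GTPases were. All 7 GTPases had a negative ratio, with a median of −0.87.

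With plasma alone the log2 ratios were 0.53 for Irf1, 0.27 for Irf7, 0.09 for Irf9, 0.31 for Stat2, 0.06 for Isg15 and 0.52 for Usp18, and 0.91 for Ifit1, 0.19 for Ifit3, −0.55 for Bst2, 0.31 for Gbp2 and 0.68 for Igtp. With platelets and macrophages they were 0.12 for Irf1, 0.82 for Irf7, 0.31 for Irf9, 0.63 for Stat2, 0.31 for Isg15 and 0.96 for Usp18, and 0.61 for Ifit1, 0.66 for Ifit3, −0.16 for Bst2, 0.87 for Gbp2 and 0.85 for Igtp. All of these but Bst2 were positive. The macrophage marker sum was 28.8 FPKM in the untreated line, 54.3 under plasma, 405 after adding both cell types and 278 after adding everything, so added cells were part of 2 of these libraries, and their part in the ISG values was not tested.

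In primary cells, the EC-KO library had 14 of 35 measured members at least 2-fold higher than the control library, where 5.47% of all genes were, and 1 lower, where 6.4% were. The median member differed by 0.67, against −0.01 for all genes. Usp18 had 96 counts in the EC-KO library and 0 in the control, at least 46.9-fold higher over a floor of 3 counts, and Rsad2, or viperin, had 28 and 0, at least 13.7-fold. Oasl1 had 10 and 0 counts, at least 4.89-fold, while Ddx60 had 0 and 10, at least 2.27-fold lower. In control and EC-KO, Irf7 was at 1.26 and 5.91 FPKM, Ifit1 at 0.606 and 3.27, Isg15 at 2.24 and 7.24, Irf9 at 5.29 and 16.4 and Igtp at 2.78 and 8.58. Their log2 ratios were 2.16 for Irf7, 2.35 for Ifit1, 1.61 for Isg15, 1.60 for Irf9 and 1.59 for Igtp. Rtp4 (2.83), Dhx58 (2.36) and Ifi44 (2.31) differed as much. Irf1 at 26.9 and 28, Stat2 at 4.82 and 5.73, Bst2 at 102 and 122, Gbp2 at 5.77 and 8.71 and Ifit3 at 6.35 and 10.9 stayed under 2-fold. Those ratios were 0.03 for Irf1, 0.23 for Stat2, 0.23 for Bst2, 0.57 for Gbp2 and 0.75 for Ifit3. The macrophage sum was 400.4 FPKM in the control and 52.1 in the EC-KO library, and Ptprc was at 0.927 and 0.0197. In the intima at 7 d, by comparison, Usp18 and Irf7 overlapped between the genotypes.

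**Figure D3:**
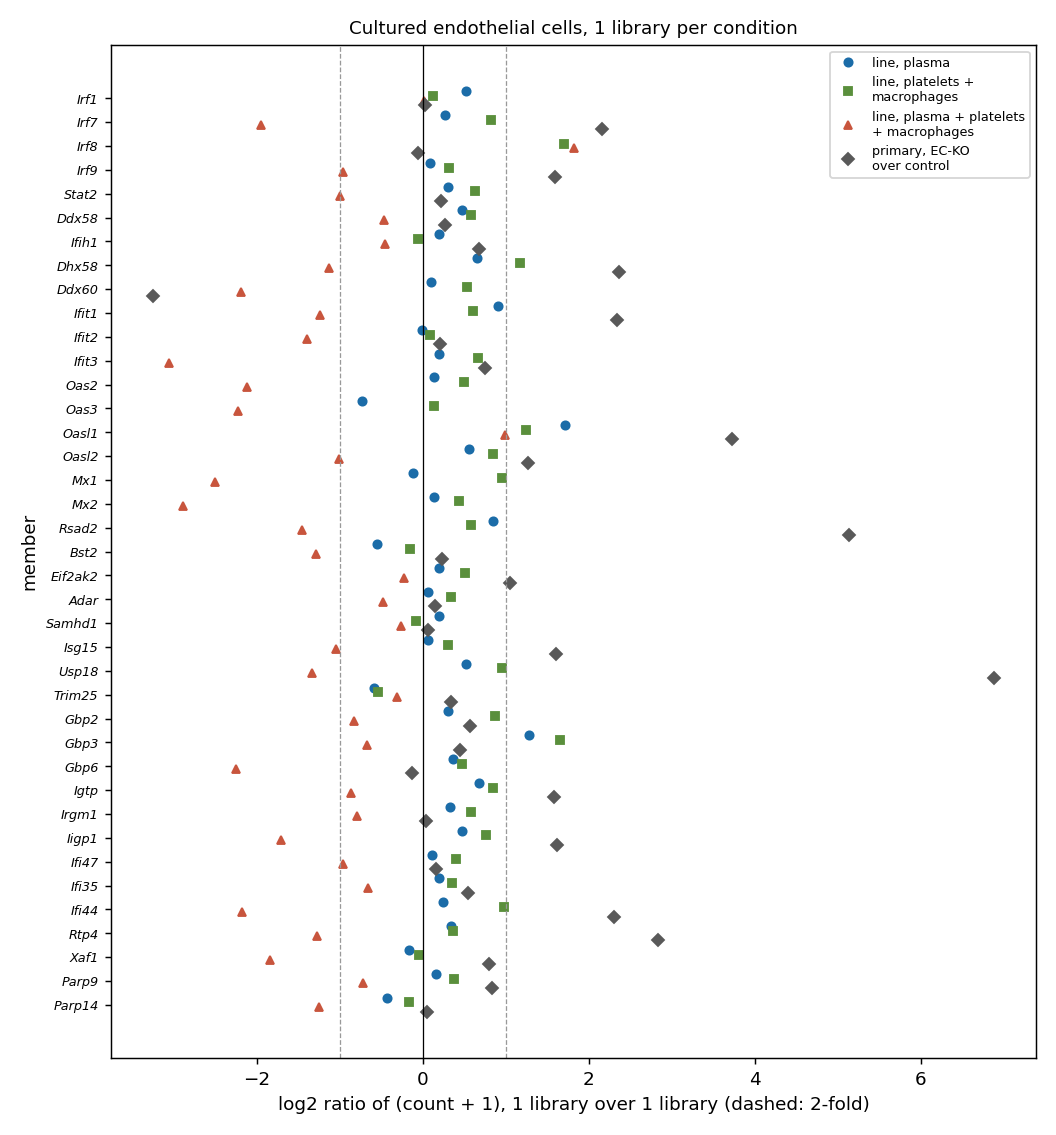
Log2 ratio of single cultured libraries (x axis) for each ISG (y axis) in 4 comparisons, 3 in the cell line against the untreated line and 1 of primary EC-KO against control cells. Most points of the library with plasma, platelets and macrophages lie under −0.5, and the points of Usp18, Rsad2, Oasl1 and Ddx60 in primary cells rest on a library with 0 counts.

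The interferons themselves were nearly absent from these libraries. Of 18 interferon genes in the table, 9 had 0 counts in each of the 42 libraries, and all 18 together had 67 counts. Ifng alone passed 3 counts, in 5 libraries with at most 11, and Ifnb1 had 5 counts in total. A count of 0 in a library allows up to 3 counts of its total.

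Of 6 receptor genes in the table, 5 passed the filter on low counts in the intima, and Il28ra, a chain of the lambda interferon receptor, did not. In untreated mice 3 of the 5 were called higher at low than at high flow, where 23.6% of all genes were, and 0 lower. Ifngr2, the signalling chain of the interferon gamma receptor, was at 23.8, 24.1 and 35.1 FPKM at low flow, 5.48, 13.6 and 11.4 at high flow and 10.1, 9.58 and 11.5 in sham. It rose by 2.13 ± 0.28 against high flow (edgeR adjusted p = 0.000147) and by 2.15 ± 0.20 against sham (adjusted p = 0.00102), in IgG mice by 1.65 ± 0.31 and in PBS mice by 1.25 ± 0.30, and it fell under anti-GPIba by 1.24 on the log2 scale (adjusted p = 0.0302). Ifnar1, a chain of the type I receptor, rose by 0.64 ± 0.17 and 0.54 ± 0.17 in the untreated comparisons with high flow and sham, and Ifngr1 by 0.89 ± 0.30 against high flow. Ifngr1 differed from sham by 0.58 ± 0.30 (adjusted p = 0.149) and was not called. Neither Ifnar1 nor Ifngr1 was called under IgG, at 0.22 ± 0.19 for Ifnar1 (adjusted p = 0.373) and 0.47 ± 0.31 for Ifngr1 (adjusted p = 0.247), or under PBS liposomes, at −0.43 ± 0.19 for Ifnar1 (adjusted p = 0.098) and −0.20 ± 0.31 for Ifngr1 (adjusted p = 0.633). Of 9 inhibitors of interferon signalling (Socs, Pias and Ptpn genes), 3 of 8 tested were called higher and 2 lower against high flow, where 23.6% and 22.6% of all genes were. Against sham 2 were higher and 2 lower, where 20.6% and 19.7% were. Under IgG 3 of 9 were higher and 1 lower, where 22.8% and 17.7% were, and under PBS liposomes 4 and 2, where 19.6% and 15.5% were. Socs3, which blocks cytokine receptors, rose in all 3 flow comparisons and against sham, by 1.31 ± 0.38, 1.73 ± 0.47, 1.50 ± 0.47 and 1.07 ± 0.34. With library totals in place of TMM, only Ifngr2 of these 4 was still called in the untreated comparisons. Ifnar1 was then at 0.02 (adjusted p = 0.975) against high flow and −0.13 (adjusted p = 0.831) against sham, where its direction turned, as did that of Ifngr1 at −0.18 (adjusted p = 0.69). Ifngr1 was at 0.17 (adjusted p = 0.66) against high flow, and Socs3 at 0.76 (adjusted p = 0.26) and 0.49 (adjusted p = 0.494). Under PBS liposomes the same scaling called Ifnar1 lower, at −0.54 (adjusted p = 0.0479).

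A wider list of 64 further interferon-induced genes moved both ways. In untreated mice 22 of 55 tested were lower and 12 higher at low than at high flow, where 22.6% and 23.6% of all genes were. Against sham 22 of 57 were lower and 7 higher, where 19.7% and 20.6% were. Under IgG 11 of 62 were lower and 8 higher, where 17.7% and 22.8% were, and under PBS liposomes 22 and 6, where 15.5% and 19.6% were. By edgeR, anti-GPIba gave 1 higher and 5 lower of 62, where 16.5% of genes were called in either direction. Anti-Gr1, clodronate and Rbfox2 deletion at either flow gave 0, as they did for the 39 members. In the cell line with all 3 additions 25 of 58 were at least 2-fold lower, where 11.9% of genes were. In primary EC-KO cells 9 of 50 were at least 2-fold higher and 1 lower, where 5.47% and 6.4% of genes were.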

How the data were processed

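The deposited table holds, per gene and library, RSEM expected counts, which the authors made from paired reads. The submitters' processing notes name STAR 2.5.1b, RSEM 1.2.15 and build mm9, and effective lengths stand beside the counts. Of 204 value columns, 162 were not used, since only the 42 count columns whose names matched the labels were read (25 matched 1 sample and 17 only a group, and 2 of the latter are named as a repeat), and the authors' other columns were left out. Expected counts were rounded (5.2% to 19.32% of values in a library were not whole), and 1 row of 21675 without a gene name was dropped. Totals ran from 4064477 to 19035957 counts.

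The members and gene lists were chosen with earlier results of these data known. Differences were tested by edgeR 4.0.16 in R 4.3.3 (filterByExpr, TMM factors, quasi-likelihood test, two-sided, Benjamini-Hochberg adjustment over all genes tested), with DESeq2 1.42.0 as an alternative. SEs are the fold change divided by the square root of the F statistic. Untreated groups were fitted in pairs, and the treated groups at 48 h and the 4 groups at 7 d each in 1 fit. FPKM were counts scaled to effective length and library total, with 0.1 added before logs in the correlations. Tables and figures used Python 3.11.15, pandas 2.3.3 and numpy 2.4.6. The fit was tested on simulated data. Named in every comparison were Irf1, Irf7, Irf9, Stat2, Isg15, Usp18, Ifit1, Ifit3, Bst2, Gbp2 and Igtp, and, in each replicated comparison, the 5 called members with the largest change in each direction. Results for 1 gene of the pathway lists are not reported here. Other members are named to complete a group's count, chosen after their values were seen.

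At 7 d, column names number the libraries. EC-KO and control low-flow libraries of the same number had r of 0.489, 0.17 and 0.272 for numbers 1, 4 and 5. Those of different number had r of −0.336 to 0.117. The main fit held no replicate block, so the values given for that comparison are unpaired. With the block as an alternative, no member's call changed there. Library totals in place of TMM, leaving out the libraries numbered 1, and leaving out low-flow library c with sham library b were added after seeing the data. A count of 0 was read against a floor of 3 counts, and intervals and floors cover counting error only.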

Additional observations from a re-analysis of the deposited data

How the results depend on the processing

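No called difference reversed its direction in 2201 recomputed values of 181 named member differences, of which 1959 kept their side of the threshold, 68 lost a call, 72 gained one and 102 uncalled values changed sign without being called, Bst2 in low against high flow with library totals among them. Leaving out 1 library leaves 1 or 2 in a group, and a lone library is then assumed to vary like the others. Percentages in parentheses are the share of all genes called in the same fit. Where members lower or higher are counted, the share is for that direction, and elsewhere for either direction. In low against high flow, untreated, members lower ran from 8 (without low-flow library a, 16.3%) to 17 (without c, 23.5%), with 17 also for library totals (27.4%). Against sham, members lower ran from 6 (without low-flow library b, 10.9%) to 23 (without sham c, 19%) and were 25 with library totals (24.3%), and members higher ran from 2 to 4, with 4 without the filter on low counts (13.4%).

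Under anti-GPIba the 1 call became 0 when any library was left out, and 6 with DESeq2 (22.1%), 4 without the filter (15.2%), 8 with the replicate block (24.7%) and 8 with the 2 groups fitted alone (34.5%). Under anti-Gr1, DESeq2 called 10 members (1.18%) and the groups alone 1 (1.76%). Under clodronate, leaving out 1 library gave 0 to 3. Anti-GPIba against anti-Gr1 gave 1 by DESeq2 (2.11%) and 1 with the groups alone (0.557%). Under IgG, members lower at low flow ran from 1 to 7 and were 9 with the replicate block (19.1%), and members higher ran from 1 (without low-flow library 1) to 4 and were 2 with the groups alone (22.4%). Under PBS liposomes, members lower ran from 3 (without high-flow library 1) to 9 and were 16 with the groups alone (19.4%), and members higher ran from 0 (without high-flow library 1) to 4.

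At 7 d, EC-KO against control at low flow gave 1 by DESeq2 (0.0994%), 0 to 9 with 1 library left out (9 without control library 1) and 5 without both libraries numbered 1 (2.84%). Low against high flow in controls gave 2 by DESeq2 (13.8%), 5 with the replicate block (22%), 0 with the groups alone (0.0234%), 7 without the libraries numbered 1 (29.2%), and 0 to 7 with 1 library left out (7 without low-flow library 1). In EC-KO it gave 5 by DESeq2 (5.99%), 2 with the replicate block (9.86%), 2 with the groups alone (6.61%) and 3 without the libraries numbered 1 (8.36%). In primary cells a minimum of 30 counts left 0 members lower. The cause of these changes was not tested.

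At 7 d, same-numbered low- and high-flow libraries 4 and 5 had correlations of 0.0224 and 0.22 in controls and −0.0322 and 0.0521 in EC-KO, and their numbers were not taken as pairs between flows. In the treated mice at 48 h, same-numbered libraries of compared groups had correlations of −0.0682 to 0.416, and their numbers were not taken as pairs. The highest, 0.416 between clodronate and PBS liposomes at low flow, is above those of EC-KO with control for numbers 4 and 5 at 7 d. No paired analysis was possible for the untreated pools because their columns carry letters and no numbers. The first-run columns of those pools, tied only to a flow group and a pool letter, were used throughout. The second sequencing run and the sum of runs were not analysed, and neither run could be tied to single samples. Depth limits Mx1, Mx2, Oas2 and Oas3 in the untreated pools, where a library held at most 25 counts of any of them.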

Other observations

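The labels also give 2 low-flow pools read at 100 bp, 1 under PBS liposomes and 1 under clodronate, and 1 library of primary eGFP+ endothelial cells cultured for 5 d, which entered no comparison. In the PBS and clodronate pools Ifit1 was at 4.38 and 6.51 FPKM, Ifit3 at 15.2 and 39, Isg15 at 28.1 and 33.8, Irf1 at 41.8 and 51.9, Gbp2 at 57.3 and 68.2, Igtp at 25.9 and 39.1 and Irf8 at 5.99 and 1.14. Their macrophage marker sums were 1609 and 245 FPKM. In the eGFP+ cells Ifit1 was at 3.46 FPKM, Ifit3 at 20.4, Isg15 at 17.4, Usp18 at 6.77, Irf7 at 5.47, Irf1 at 23.3, Gbp2 at 5.29 and Irf8 at 0.971. Each is a single library without a replicate.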
